A study of Mus musculus with 4 samples.

Results

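The nuclear genes for the mitochondrial respiratory chain were followed in mouse liver after conditional knockout of NIPP1 in the liver. NIPP1, the product of Ppp1r8, binds protein phosphatase 1 in the nucleus and regulates it. Members were all probes of the array whose gene symbol begins with Nduf, Uqcr, Atp5 or Cox4 to Cox8, or is Sdha, Sdhb, Sdhc or Sdhd. This rule took 134 of 39429 probes, which stand for 90 of the 30175 genes named on the array, and it used no measured value. Of these members, 131 probes of 88 genes were tested, among 20833 tested probes of 16178 genes. The 3 untested probes, those of Cox7b2 and Cox8c and 1 of the 4 Ndufb5 probes, did not reach the signal required in any group.

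Total liver RNA was taken from 4 untreated male mice with the conditional liver NIPP1 knockout and from 4 untreated male control mice, all of mixed strain and 2 months old. Each of 4 two-colour arrays carried 1 knockout and 1 control mouse, and no mouse was used more than once. The knockout RNA carried the dye Cy5 on replicates 3 and 4, called the Cy5 arrays here, and Cy3 on replicates 1 and 2, called the Cy3 arrays. Which promoter drives Cre, and which exons it removes, is not stated in the labels. All values below are log2 knockout over control on 1 array, or the fitted value over the 4 arrays with its standard error (SE). A probe was called at a Benjamini-Hochberg adjusted p under 0.05 from limma, over all tested probes.

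The respiratory chain is a set of complexes in the inner mitochondrial membrane. Complexes I and II pass electrons from NADH and succinate to coenzyme Q, complex III passes them on to cytochrome c, and complex IV passes them to oxygen. Complexes I, III and IV pump protons, and complex V, the ATP synthase, uses the proton gradient to make ATP. Most subunits are nuclear genes translated in the cytosol, while the mitochondrial genome encodes a small set of core subunits. The liver is rich in mitochondria, and its fatty acid oxidation, gluconeogenesis and urea synthesis draw on the chain.

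The targeted gene was measured by 2 probes. The first gave -0.75 and -0.64 on the Cy5 arrays and -0.61 and -0.74 on the Cy3 arrays (fitted -0.68 ± 0.05 SE, limma adjusted p = 0.0517). The second gave -0.59 and -0.76 on the Cy5 arrays and -0.67 and -0.59 on the Cy3 arrays (fitted -0.65). Ppp1r8 was thus negative on all 4 arrays, just outside the threshold, and its signal stayed well above background in all 8 mice. The fitted values were -1.33 and -1.22 with the processed signals of the scanner software, and over the other alternatives they lay between -0.74 and -0.53. Albumin and the other hepatocyte markers were at a median average log2 intensity of 15.6, above 98.0% of tested probes. Over the 4 arrays, 52.7% to 56.3% of spots were well above background in a dye and 0 spots were saturated. All arrays lay on 1 slide. The number of arrays limits the precision.

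Some array probes are shown here because the results turn on them: 6 for mitochondrially encoded subunits of complexes I (ND) and IV (COX), and 3 for nuclear subunits whose probes hold an open reading frame. Each is given whole, 5′ to 3′, as in the array files, and positions are on mm9.
ND1 (chrM:2898-2957): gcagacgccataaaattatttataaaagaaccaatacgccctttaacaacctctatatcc
ND2 (chrM:4670-4729): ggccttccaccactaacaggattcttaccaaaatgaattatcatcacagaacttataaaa
ND4 (chrM:11370-11429): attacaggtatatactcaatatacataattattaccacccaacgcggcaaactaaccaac
ND4L (chrM:10114-10173): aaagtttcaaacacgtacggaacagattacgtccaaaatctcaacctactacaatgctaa
COX1 (chrM:6650-6709): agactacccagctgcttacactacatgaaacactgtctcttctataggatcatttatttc
COX2 (chrM:7619-7678): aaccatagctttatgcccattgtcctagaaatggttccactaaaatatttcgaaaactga
Cox4i1 (chr8:123197924-123197983): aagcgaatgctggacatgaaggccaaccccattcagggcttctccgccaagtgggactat
Cox7a1 (chr7:30970337-30970948): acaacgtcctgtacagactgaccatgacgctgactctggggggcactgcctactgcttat
Sdhb (chr4:140529606-140529665): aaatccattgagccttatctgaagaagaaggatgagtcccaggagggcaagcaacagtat
The positions of the Cox7a1 probe span 612 bases of the genome for 60 bases of probe.

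The members as a set lay close to the controls. Their fitted values had a median of 0.05 over 131 probes, against a median of -0.0001 over all tested probes. Of the 131, 119 were for complexes I to V (median 0.05), 5 for assembly factors of complex I and 7 for other genes taken by their symbol. The counts below include all of them. None of the 131 member probes was called higher (0.144% of all tested probes were) and none was called lower (0.0576% were). At an unadjusted p under 0.05 in limma, 24 member probes were higher and 4 lower, which is 18.3% and 3.05% of them, against 12.9% and 10.3% of all tested probes. The larger share of higher probes among members did not hold under 6 of the 13 alternatives. With the processed signals 9 member probes were higher (6.87%, against 11.8% of all tested probes), and without the dye term 10 were (7.63%, against 9.21%). Without replicate 1, 2, 3 or 4 the members higher numbered 8, 6, 5 and 8, which is 6.11%, 4.58%, 3.82% and 6.11%, against 9.91%, 10.3%, 7.69% and 10.3% of all tested probes. The fitted value was above 0 for 99 of 131 member probes (75.6%), against 50% of all tested probes. When arrays were only centred on their median, with no correction for intensity, it was above 0 for 118 of 131 (90.1%), against 58.9% of all tested probes, and the median of all tested probes itself moved to 0.03.

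The spread between members was narrow. The middle 50% of fitted values spanned 0.11 on the log2 scale for the members and 0.19 for all tested probes. In size, 1 member probe passed 0.5 (0.763%), against 3.77% of all tested probes. The members were among the brightest probes of the array, with a median average log2 intensity of 14.3 against 8.90 for all tested probes, and 91 of the 131 lay in the top 10% of tested probes by intensity. All 8 mice gave a signal well above background at 128 of the 134 member probes.

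The 5 complexes had similar medians. Complex IV had a median of 0.07 (20 probes) and complex III a median of 0.07 (15 probes). Complex V had 0.06 (29 probes), complex II 0.05 (6 probes) and complex I 0.04 (49 probes). Within complex I, the 8 probes of the core subunits, among them those with the flavin and the iron-sulfur clusters, had a median of -0.01, and the 41 probes of accessory subunits had 0.04. Within complex V, the 6 probes of the F1 head, where ATP is made, had a median of 0.01 and the 23 probes of the membrane part and stalks had 0.07. Within an array, the accessory median was above the core median by 0.18 and 0.03 on the Cy5 arrays and by 0.04 and 0.09 on the Cy3 arrays. The median of the membrane part and stalks was above that of the F1 head by 0.04 and 0.07 on the Cy5 arrays and by 0.11 and 0.07 on the Cy3 arrays. Neither difference was tested. The complex I median was 0.01 without replicate 3 and 0.07 without replicate 4, and the complex IV median was 0.10 without replicate 1 and 0.12 without replicate 4.

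**Figure D1:**
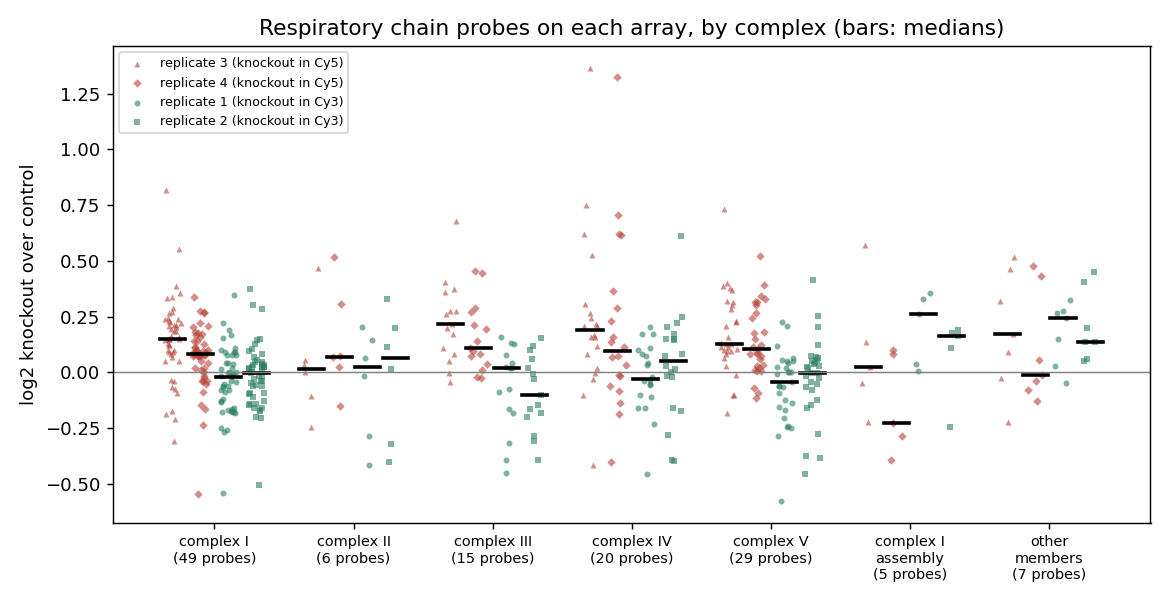
Log2 knockout over control (vertical axis) of each tested respiratory chain probe on each of the 4 arrays, grouped by complex, with the 2 Cy5 arrays (red) left of the 2 Cy3 arrays (green) and black bars at the medians. In complexes I, III, IV and V the medians of both Cy5 arrays lie above those of both Cy3 arrays, and the 2 highest points are Cox6b2 on the Cy5 arrays at 1.37 and 1.32.

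In complex I, the largest values belonged to accessory subunits. Ndufab1, the mitochondrial acyl carrier protein that also serves as a subunit of complex I, had -0.30 and -0.55 on the Cy5 arrays and -0.54 and -0.51 on the Cy3 arrays. It was negative on every array, with a fitted value of -0.47 ± 0.06 (SE) and a limma adjusted p of 0.0598. It was 1 of 2 member probes that were lower at an adjusted p under 0.1 (2.66% of all tested probes were). The probe with the highest fitted value in complex I was 1 of 3 for Ndufa3, at 0.43 ± 0.12 (SE, limma adjusted p = 0.142). Its fitted value ran from 0.27 to 0.93 over the processing alternatives. That probe was dim, at an average log2 intensity of 6.90, and the other 2 Ndufa3 probes, at 13.7 and 15.2, had 0.03 and 0.05.

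Of the catalytic subunits of complex I, Ndufv1, which binds the flavin and NADH, lay below 0 on every array with close values. It had -0.17 and -0.16 on the Cy5 arrays and -0.16 and -0.14 on the Cy3 arrays (fitted -0.16 ± 0.05 SE, limma adjusted p = 0.148). Ndufs1, the large iron-sulfur subunit, had -0.18 and -0.02 on the Cy5 arrays and -0.18 and -0.16 on the Cy3 arrays (fitted -0.14). Both were negative on all 4 arrays and neither passed the threshold. Ndufa13, also known as GRIM-19, had 0.55 and 0.34 on the Cy5 arrays and -0.005 and 0.13 on the Cy3 arrays (fitted 0.25 ± 0.06 SE, limma adjusted p = 0.122). It is outside the rule for named genes and was chosen after its values were seen.

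Complex II, the succinate dehydrogenase that is also an enzyme of the citric acid cycle, was split between its subunits. Sdha, the flavoprotein that oxidizes succinate, had -0.25 and -0.15 on the Cy5 arrays and -0.29 and -0.40 on the Cy3 arrays. It was below 0 on every array (fitted -0.27 ± 0.05 SE, limma adjusted p = 0.0914). Sdhd, a membrane anchor, was above 0 on every array, with 0.05 and 0.31 on the Cy5 arrays and 0.15 and 0.33 on the Cy3 arrays (fitted 0.21 ± 0.07 SE, limma adjusted p = 0.187). The 2 probes of the iron-sulfur subunit Sdhb had fitted values of 0.05 and 0.06, and the 2 probes of the anchor Sdhc had 0.08 and 0.04. Whether the subunits differ from each other was not tested.

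In complex III all 15 probes lay between -0.09 and 0.15. The lowest was Uqcrc1, a core protein of the matrix side, with -0.04 and -0.02 on the Cy5 arrays and -0.09 and -0.20 on the Cy3 arrays (fitted -0.09 ± 0.05 SE). The highest was 1 of 3 probes of Uqcr10, a small accessory subunit, at 0.15, and the other 2 had 0.14 and 0.15. The Rieske iron-sulfur protein Uqcrfs1 had 0.05 ± 0.05 (SE).

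In complex IV the 15 probes of constitutive subunits had a median of 0.09, with 11 above 0, and the highest fitted values of the complex were those of Cox6b2 and Cox7a1, both known from other tissues. Cox6b2, the testis form of subunit 6b, had 1.37 and 1.32 on the Cy5 arrays and 0.17 and 0.61 on the Cy3 arrays. It was positive on all 4 arrays, but its Cy5 and Cy3 values did not overlap (fitted 0.87 ± 0.09 SE, limma adjusted p = 0.0525). It was 1 of 3 member probes that were higher at an adjusted p under 0.1 (4.05% of all tested probes were), and it had the lowest adjusted p of all members. Its average log2 intensity of 9.42 was above 56.7% of tested probes. Cox6b1, the form of most tissues, had 0.22 and 0.11 on the Cy5 arrays and 0.17 and 0.08 on the Cy3 arrays (fitted 0.15 ± 0.05 SE, limma adjusted p = 0.195).

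Cox7a1, the heart and muscle form of subunit 7a, had 0.62 and 0.62 on the Cy5 arrays and -0.10 and 0.15 on the Cy3 arrays. Its fitted value was 0.32 ± 0.06 (SE, limma adjusted p = 0.0931), but 1 array was negative. The liver form Cox7a2 had 0.11 ± 0.05 (SE). The other muscle forms tested were dim, with fitted values near 0. Cox6a2 had a fitted value of 0.01 ± 0.08 (SE), and Cox8b had -0.02 ± 0.21 (SE). The lung form Cox4i2 had -0.02 ± 0.05 (SE). Striated muscle markers were tested with 4 probes for 4 of 14 genes, and their medians were 0.06 and -0.69 on the Cy5 arrays and 0.08 and -0.68 on the Cy3 arrays. Their part in the Cox7a1 value was not tested.

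Cox5a, a constitutive subunit, had -0.03 and -0.02 on the Cy5 arrays and -0.02 and 0.001 on the Cy3 arrays. Its processed signals gave -0.12 and -0.18 on the Cy5 arrays and 0.14 and 0.13 on the Cy3 arrays. Cox4i1, whose probe is printed above, had 0.08 and 0.03 on the Cy5 arrays and -0.11 and 0.17 on the Cy3 arrays (fitted 0.04 ± 0.07 SE). Ndufa4, a subunit now counted with complex IV, had a fitted value of 0.09 ± 0.07 (SE). Cox6c was positive on all 4 arrays, with 0.24 and 0.08 on the Cy5 arrays and 0.20 and 0.20 on the Cy3 arrays (fitted 0.18 ± 0.05 SE, limma adjusted p = 0.156). The lowest value of the complex was that of a Cox5b probe, at -0.04. The array files place this probe on chromosome 15 of mm9 and the other Cox5b probe on chromosome 1.

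In complex V, Atp5a1, the alpha subunit of the F1 head, had -0.10 and 0.01 on the Cy5 arrays and -0.29 and -0.28 on the Cy3 arrays. It had the lowest fitted value of the complex (-0.16 ± 0.05 SE, limma adjusted p = 0.159). The catalytic beta subunit, Atp5b, had 0.38 and 0.39 on the Cy5 arrays and -0.58 and -0.38 on the Cy3 arrays, so that its fitted value was -0.05 ± 0.06 (SE). Of the genes for subunit c of the membrane ring, Atp5g3 had the highest fitted value of the complex, 0.16 ± 0.06 (SE). The 2 Atp5g2 probes had 0.12 and 0.16, and the 2 Atp5g1 probes had 0.09 and -0.01.

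Of the members that are not subunits, Ndufaf1, an assembly factor of complex I, had 0.57 and 0.10 on the Cy5 arrays and 0.26 and 0.19 on the Cy3 arrays (fitted 0.28 ± 0.09 SE, limma adjusted p = 0.185). Ndufaf3, another assembly factor, had -0.10 ± 0.08 (SE). Ndufa4l2, a paralog of Ndufa4 known as a hypoxia-induced gene, had 0.52 and 0.43 on the Cy5 arrays and 0.15 and 0.45 on the Cy3 arrays. It was positive on every array (fitted 0.39 ± 0.07 SE, limma adjusted p = 0.0840).

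**Figure D2:**
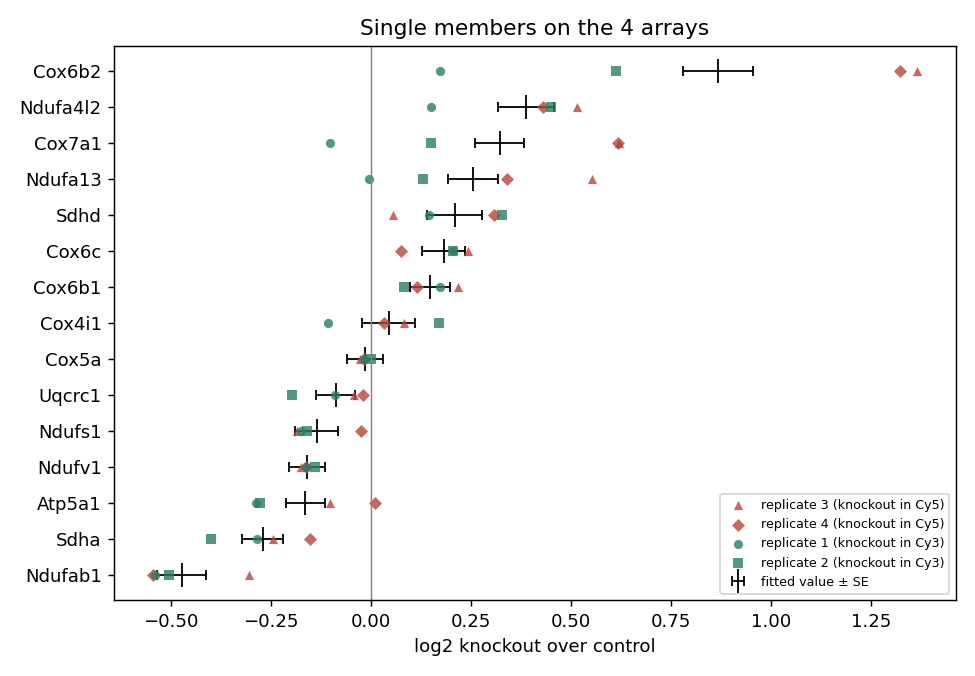
Log2 knockout over control (horizontal axis) of 15 member probes on the Cy5 arrays (red) and the Cy3 arrays (green), with black bars for the fitted value ± SE. Ndufab1, Sdha, Ndufv1, Ndufs1 and Uqcrc1 lie below 0 on all 4 arrays, Cox6b2, Ndufa4l2, Sdhd, Cox6c and Cox6b1 above 0 on all 4, and the points of Cox5a lie between -0.03 and 0.001.

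The signs on the arrays gave 33 member probes positive on all 4 arrays (25.2%), against 13.4% of all tested probes. They gave 5 member probes negative on all 4 (3.82%), against 11.1% of all tested probes. In complexes II, III, IV and V the numbers positive and negative on all 4 arrays were 2 and 1, 4 and 1, 5 and 0, and 8 and 0. In complex I they were 10 and 3.

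The members lay higher on the Cy5 arrays than on the Cy3 arrays. The members' median was 0.16 and 0.08 on the Cy5 arrays and -0.01 and 0.02 on the Cy3 arrays. For all tested probes it was 0.02 and 0.02 on the Cy5 arrays and -0.005 and -0.01 on the Cy3 arrays. Positive on both Cy5 arrays and negative on both Cy3 arrays were 38 member probes (29%), against 13.6% of all tested probes. The reverse held for 8 member probes (6.11%), against 10% of all tested probes. Of the other lists, some differed between orientations in the same direction and some in the reverse. Hepatocyte markers had medians of 0.09 and 0.45 on the Cy5 arrays and -0.31 and -0.15 on the Cy3 arrays, a median difference of 0.46. For regulators of mitochondrial biogenesis the median difference was 0.25. It was -0.06 for mitochondrial ribosomal proteins (103 probes) and -0.07 for assembly factors outside the rule. For Kupffer cell, erythroid and pancreatic acinar markers it was -0.09, -0.53 and -1.47.

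No member probe, and no probe of the array (0%), passed the adjusted threshold for a difference between orientations in limma, where the smallest adjusted p was 0.127 among members and 0.112 among all. At an unadjusted p under 0.05, 32 member probes were higher on the Cy5 arrays (24.4%, against 13% of all tested probes) and 4 were lower (3.05%, against 8.73%). With the processed signals 17 were higher (13%, against 9.91%) and 2 lower (1.53%, against 9.8%). Without replicate 1, 2, 3 or 4 the numbers higher were 17, 21, 17 and 22, or 13%, 16%, 13% and 16.8%, against 8.38%, 10.8%, 9.79% and 7.22% of all tested probes. Across the 131 member probes, which share each array's normalization, the 2 Cy5 arrays correlated at 0.73 and the 2 Cy3 arrays at 0.71 (Pearson). Between a Cy5 and a Cy3 array the correlation ran from -0.24 to 0.11. Over all tested probes the 2 Cy5 arrays correlated at 0.53 and the 2 Cy3 arrays at 0.28. There the correlation between a Cy5 and a Cy3 array ran from -0.25 to 0.27. In the processed signals the members' median difference was 0.11, close to the 0.12 of the fit used here. The orientations hold different mice, so that dye and mice cannot be told apart.

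Among members the difference was largest in Cox6a1, the liver form of subunit 6a and the brightest member at an average log2 intensity of 17.0. It had 0.75 and 0.62 on the Cy5 arrays and -0.45 and -0.40 on the Cy3 arrays. Its difference between orientations was 1.11 ± 0.10 (SE), and its fitted knockout value was 0.13 ± 0.05 (SE). Cox6b2 had a difference of 0.95, Atp5g3 one of 0.93 and Atp5b one of 0.86. Cox4i1 and Cox5a, at average log2 intensities of 15.7 and 15.8, had differences of 0.03 and -0.01. With the processed signals the differences were 0.54 for Cox6a1, 0.97 for Cox6b2, 0.59 for Atp5g3 and 0.47 for Atp5b, and -0.39 for Cox4i1 and -0.29 for Cox5a.

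In the 4 member probes with an average log2 intensity over 16, the median difference between orientations was 0.89, against 0.70 in the 238 other probes of that brightness. From 15 to 16 it was 0.26 in 32 member probes and 0.15 in 474 other probes. From 14 to 15 it was 0.07 in 39 member probes and -0.08 in 739 others. From 13 to 14 it was 0.05 in 22 member probes and -0.11 in 942 others. From 10 to 13 it was 0.04 in 19 member probes and -0.01 in 5070 others. Under 10 it was 0.17 in 15 member probes and 0.04 in 13239 others. Spearman's rho between intensity and the difference was 0.40 over the 131 member probes and -0.03 over all tested probes. Pearson's correlation was 0.25 over the member probes and -0.003 over all tested probes. These are descriptions over probes of the same arrays. The part of intensity in the difference was not tested.

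**Figure D3:**
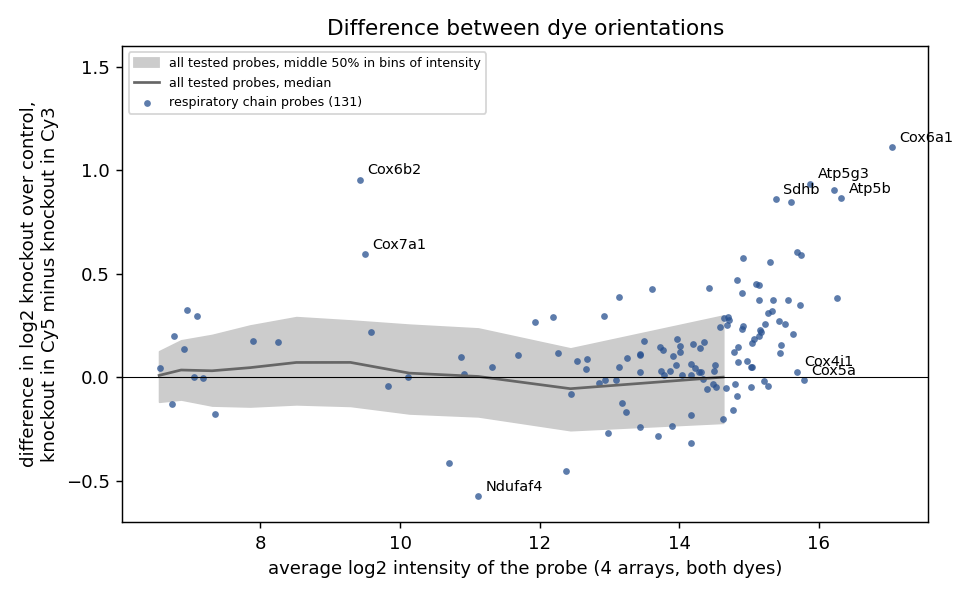
Difference in log2 knockout over control between the Cy5 arrays and the Cy3 arrays (vertical axis) against the average log2 intensity (horizontal axis) of the 131 tested member probes (blue), with the median (grey line) and middle 50% (grey band) of all tested probes in 10 bins of intensity. Most members lie at the bright end, where the difference reaches 1.11 for Cox6a1, while Cox6b2 at 0.95 and Cox7a1 at 0.59 stand apart at middle intensity.

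For some genes, probes with close knockout values differed in their orientation values. By its definition the orientation difference has a larger SE than the knockout value, so a wider range is built in. Of 30 member genes with several tested probes, 25 had fitted knockout values within 0.1 of each other, and 8 had probes of both signs. The 2 Sdhb probes had fitted values of 0.05 and 0.06. Their difference between orientations was 0.01 for the probe printed above and 0.86 for the brighter one, which had 0.47 and 0.52 on the Cy5 arrays and -0.41 and -0.32 on the Cy3 arrays. The 2 Cox8a probes likewise had fitted values of 0.14 and 0.15, with differences of 0.61 and 0.12. Probes of 1 gene share its transcripts and are not replicates.

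The subunits encoded in the mitochondrial genome, which the member rule does not take, were measured by 13 probes for 13 genes. Their fitted values had a median of -0.19, and 8 of 13 were below 0. All 7 probes for the ND subunits of complex I were negative on all 4 arrays, while none of the 6 probes for cytochrome b and for complexes IV and V was (11.1% of all tested probes were negative on all 4). None passed the threshold, and 3 of 13 were lower at an adjusted p under 0.1 (2.66% of all tested probes were). The list was chosen with earlier results of these data known.

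ND2 had the largest value, with -0.93 and -0.69 on the Cy5 arrays and -0.62 and -1.13 on the Cy3 arrays (fitted -0.84 ± 0.11 SE, limma adjusted p = 0.0587). ND4L had -0.18 and -0.23 on the Cy5 arrays and -0.39 and -0.67 on the Cy3 arrays (fitted -0.37 ± 0.07 SE, limma adjusted p = 0.0821). ND1 had -0.31 and -0.43 on the Cy5 arrays and -0.24 and -0.39 on the Cy3 arrays (fitted -0.34 ± 0.06 SE, limma adjusted p = 0.0752). The others were ND3 at -0.30, ND6 at -0.29, ND5 at -0.26 and ND4 at -0.19. The array files place the ND3 probe on chromosome 1 of mm9, not on the mitochondrial genome.

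The complex IV subunits of the mitochondrial genome were not below 0 in the fit. COX2 had 0.49 and 0.27 on the Cy5 arrays and -0.03 and 0.22 on the Cy3 arrays (fitted 0.24 ± 0.07 SE, limma adjusted p = 0.161). COX1 was positive on the Cy5 arrays, at 0.38 and 0.43, and negative on the Cy3 arrays, at -0.17 and -0.14 (fitted 0.12 ± 0.05 SE). COX1 was, with the processed signals, positive on all 4 arrays, at 0.14 and 0.06 on the Cy5 arrays and 0.18 and 0.16 on the Cy3 arrays. COX3 had a fitted value of 0.04, ATP6 of 0.09, ATP8 of 0.07 and CYTB of -0.12. With the processed signals, the fitted values of all 7 ND probes were also negative, but only 5 of the 7 were negative on all 4 arrays. There ND3 was 0.002 on replicate 1 and ND6 was 0.02 on replicate 2.

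**Figure D4:**
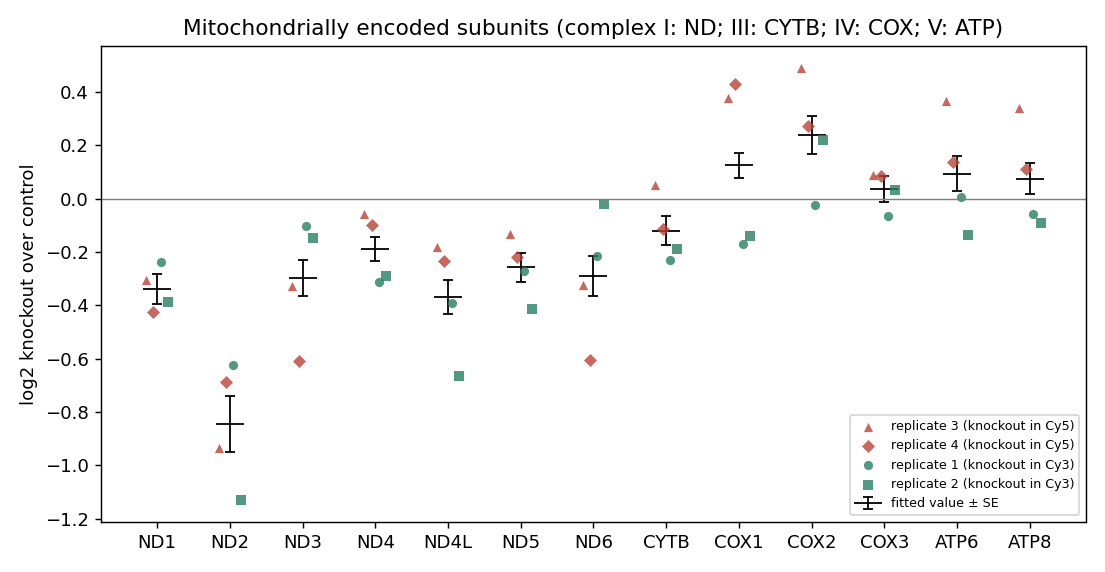
Log2 knockout over control (vertical axis) of the 13 probes for subunits of the mitochondrial genome on the Cy5 arrays (red, left) and the Cy3 arrays (green, right), with black bars for the fitted value ± SE. The 7 ND probes lie below 0 on every array, from -0.02 for ND6 to -1.13 for ND2, and each of the other 6 probes has points on both sides of 0.

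Other genes that build or feed the chain were counted in lists chosen with earlier results of these data known. Of 34 probes for assembly factors outside the rule, 1 was higher and 4 were lower at an adjusted p under 0.1, with a median of 0.03. Of all tested probes 4.05% were higher and 2.66% lower by this rule, which also holds for the lists that follow. Bcs1l, the chaperone that inserts the Rieske protein into complex III, had -0.60 and -0.73 on the Cy5 arrays and -0.34 and -0.49 on the Cy3 arrays (fitted -0.54 ± 0.06 SE, limma adjusted p = 0.0525). Cox16, an assembly factor of complex IV, had -0.79 and -0.85 on the Cy5 arrays and -0.17 and -0.38 on the Cy3 arrays (fitted -0.55 ± 0.06 SE, limma adjusted p = 0.0525). Neither passed the threshold.

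Of 39 probes for regulators of mitochondrial biogenesis, 4 were higher and 2 lower at an adjusted p under 0.1, with a median of 0.04. Polg, the catalytic subunit of the mitochondrial DNA polymerase, had -0.49 and -0.37 on the Cy5 arrays and -0.39 and -0.37 on the Cy3 arrays (fitted -0.41 ± 0.05 SE, limma adjusted p = 0.0580). Ssbp1, the mitochondrial single-stranded DNA binding protein, had 0.20 and 0.25 on the Cy5 arrays and 0.39 and 0.56 on the Cy3 arrays (fitted 0.35 ± 0.05 SE, limma adjusted p = 0.0700). Of 12 probes for electron carriers, such as cytochrome c, none was called at an adjusted p under 0.1, and the median was -0.05.

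Of 11 probes for ADP/ATP and phosphate carriers, uncoupling proteins and porins, 2 were lower and none higher at an adjusted p under 0.1, with a median of 0.06. Both were probes of Slc25a3, the phosphate carrier that supplies the ATP synthase. The brighter one had -0.31 and -0.29 on the Cy5 arrays and -0.52 and -0.38 on the Cy3 arrays (fitted -0.37 ± 0.05 SE, limma adjusted p = 0.0609), and the other had a fitted value of -0.41.

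The promoters of the members were searched for the letters of motifs of factors known to drive respiratory chain genes, in the 250 bases before and 50 after the start given by RefSeq (GRCm38.p6). A promoter was matched for 74 of the 90 member genes. The core of the NRF1 motif, GCATGCGC, stood in 11 of 74 (14.9%), against 3.0% of 27025 genes. The ETS motif bound by GABPA, CCGGAAG, stood in 17 of 74 (23.0%), against 9.9%. The YY1 motif, AAGATGGC, stood in 11 of 74 (14.9%), against 3.2%. Both strands were searched, and matches of 1 motif on both strands can overlap, as at the NRF1 letters of Cox6a1.

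Among complex subunits, the brightest probe of the 16 genes with the ETS letters had fitted knockout values from -0.004 to 0.21 (median 0.08), against -0.47 to 0.87 (median 0.04) in the 50 genes without them. With the NRF1 letters the 10 genes had a median of 0.04, against 0.05 in 56 genes without. With the YY1 letters the 10 genes had a median of 0.06, against 0.04 in 56 without. These are descriptions, and a match is not a shown site. The 250 bases before the start are printed for Cox6b2, the member with the largest value, for its constitutive counterpart Cox6b1, and for Cox6a1, the member with the largest orientation difference. Capitals mark the NRF1 and ETS letters, and the Cox6b2 window holds none of the 3 motifs. All 3 genes are on the minus strand.
Cox6b2 (chr7:4753095-4753344): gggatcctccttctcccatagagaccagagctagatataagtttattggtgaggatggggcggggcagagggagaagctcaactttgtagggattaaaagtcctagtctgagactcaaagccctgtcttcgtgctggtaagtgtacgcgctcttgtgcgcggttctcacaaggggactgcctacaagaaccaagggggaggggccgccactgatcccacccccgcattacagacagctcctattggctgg
Cox6b1 (chr7:30626115-30626364): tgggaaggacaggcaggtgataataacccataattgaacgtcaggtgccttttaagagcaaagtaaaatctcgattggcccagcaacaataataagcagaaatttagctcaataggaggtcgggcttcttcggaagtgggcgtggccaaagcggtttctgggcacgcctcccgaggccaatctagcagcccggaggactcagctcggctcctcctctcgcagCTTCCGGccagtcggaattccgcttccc
Cox6a1 (chr5:115348959-115349208): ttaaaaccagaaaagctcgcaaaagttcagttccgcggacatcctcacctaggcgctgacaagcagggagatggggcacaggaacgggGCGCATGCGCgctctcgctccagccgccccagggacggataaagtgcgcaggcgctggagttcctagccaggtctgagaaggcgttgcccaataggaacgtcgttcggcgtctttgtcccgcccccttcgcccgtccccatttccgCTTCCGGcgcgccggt

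Markers of other cells of the liver were read beside the members, since in whole tissue fewer cells of a type and less RNA per cell cannot be told apart. Biliary markers had a median of 0.09 over 10 probes of 9 genes. Tspan8, a tetraspanin, was the 1 list probe past the threshold, with 0.98 and 0.98 on the Cy5 arrays and 0.32 and 0.44 on the Cy3 arrays, and it was called higher (fitted 0.68 ± 0.05 SE, limma adjusted p = 0.0494). The call was lost with normexp fitted on all spots, with the processed signals, without the dye term, with 1 probe per gene and without any 1 replicate, with limma adjusted p up to 0.223 over the alternatives and fitted values from 0.61 to 1.69. The keratin Krt19 had 0.996 and 0.91 on the Cy5 arrays and 0.14 and 0.52 on the Cy3 arrays (fitted 0.64 ± 0.08 SE, limma adjusted p = 0.0587). Cox6b2 had the same order as Tspan8 and Krt19, highest on the Cy5 arrays and lowest on replicate 1. The biliary list as a whole did not share this order. Its medians were 0.16 and 0.09 on the Cy5 arrays and 0.01 and 0.19 on the Cy3 arrays, with fitted values from -0.35 to 0.68. The part of biliary cells in the Cox6b2 value was not tested.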

How the data were processed

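Liver RNA of 8 mice was measured on 4 Agilent two-colour arrays. Per the file headers, scans were read with Feature Extraction 10.7.3.1. The deposited files hold mean spot intensity, local background intensity and flags, and processed intensities that the authors' software had background-subtracted and dye-normalized. The authors' deposited value table holds log2 ratios. On each array all 43020 of them matched, to within 0.0001, the log2 knockout over control given by the processed signals, so scale, centring and direction were settled (column medians -0.05, 0.14, -0.18 and -0.18). It was used only through those signals.

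Background was corrected with normexp (offset 50), its parameters fitted without spots flagged for background, because the fit on all spots fails on replicate 1 (background means -273 in Cy3 and -185 in Cy5). Loess followed within arrays, with control spots at weight 0. Outlier spots (194 to 230 per array) were left out and spots of a probe averaged. Tested were probes that 3 or more mice of 1 genotype showed well above background. limma 3.58.1 (R 4.3.3) fitted a dye intercept and the knockout effect over all probes, with Benjamini-Hochberg adjustment at 0.05. The SE leaves out any difference between orientations. The orientation difference is the knockout value with knockout RNA in Cy5 minus that in Cy3. Mice are separate animals, each measured once. On simulated ratios of 20818 probes, 9 of 50 changes of 0.5 and 41 of 50 changes of 1 (log2) were recovered. The simulation also held 50 changes of 2 and 50 of 3, which eases the adjustment, so recovery in the real data can be lower. In the same simulation 10 unchanged probes were called.

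Members and lists were chosen with earlier results of these data known. Named genes are Ppp1r8, the highest and lowest probe of each complex and of the assembly factors, and a fixed set of subunits and tissue isoforms. Also named are members with an adjusted p under 0.1 (none passed 0.05). From each of 16 other lists come the 2 probes of lowest p, which can be of 1 gene. All 13 mitochondrially encoded probes are given. Not every gene of the fixed set is reported here. Lists cover mitochondrially encoded subunits, electron carriers, assembly factors, coenzyme Q synthesis, carriers, the citric acid cycle, biogenesis regulators, mitochondrial ribosomal proteins and markers of striated muscle, brown fat, pancreatic acini, erythroid cells, hepatocytes, endothelium, Kupffer cells and bile ducts. Tables were handled in data.table version 1.17.8, sequences were handled with Biopython 1.88 and figures were drawn with matplotlib 3.10.9. Promoters are RefSeq's (GRCm38.p6).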

Additional observations from a re-analysis of the deposited data

Results flagged for a closer look

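Of 91 named probes and medians examined, 4 had 1 of the 4 arrays far from the other 3, where chance gives about 1 in 20. Ndufab1 had -0.30 on replicate 3 and -0.55 to -0.51 on the others. Ndufs1 had -0.0249 on replicate 4 and -0.18 to -0.16 on the others. Amy2a5, an amylase of the pancreatic acinar list, had 1.11 on replicate 1 and -0.20 to -0.03 on the others. Lyve1, of the endothelial list, had -0.00261 on replicate 1 and -0.18 to -0.17 on the others.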

How the results depend on the processing

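Results were recomputed under 13 alternatives where these applied. Orientation differences have no value without the dye term or in the separate-channel fit. Some named probes were absent with 1 probe per gene or with a signal in all 8 mice. The counts of all probes called higher and lower (30 and 12) were 0 and 0 with normexp fitted on all spots, 107 and 46 without background correction, 6 and 4 with the processed signals, 260 and 69 with median centring, 2076 and 1603 in the separate-channel fit, 327 and 180 without a filter, 123 and 63 with a signal in all 8 mice and 0 and 0 with 1 probe per gene. Without the dye term 22 probes were lower. Without 1 replicate the counts were 0 to 0 for both, with 1602 to 2153 higher at an unadjusted p under 0.05 in limma. Of members, none was called higher by the main setting, 1 with median centring, 15 in the separate-channel fit, 1 without a filter and 1 with a signal in all 8 mice. None was called lower by the main setting, 3 in the separate-channel fit and 1 without a filter. Orientation differences, 0 by the main setting, were called for 16104 probes and 126 members with median centring, and for 9 probes and no member without a filter. The complex II median of 0.05 moved to 0.11 with median centring. Other medians of complexes I to V and of all members moved by less than their SD over arrays, which still took the median of all members to 0.11 and that of complex I to 0.09 with median centring, complex III to 0.04 with 1 probe per gene, and complex IV to 0.04 without a filter and to 0.10 with a signal in all 8 mice or 1 probe per gene. The sign held under every setting that included the probe for 30 of 40 named member probes and 72 of 84 named probes. With all 4 arrays present, the dye term, separate-channel fit, filters and 1 probe per gene leave a probe's fitted value unchanged. Only the other background or normalization settings and the fits without 1 replicate could therefore change a sign. Cox6b2 ranged from 0.76 to 0.98, Ndufab1 from -0.53 to -0.41 and Sdha from -0.30 to -0.22, and the 7 ND probes were negative in all settings. Alternatives for list genes and the mitochondrially encoded median were added after seeing the data. The causes of these changes were not tested. Each array already pairs 1 knockout with 1 control mouse and its ratio is the unit, so no further pairing was made. Precision is limited by 4 arrays.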

Other observations

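Mitochondrial ribosomal proteins, which make the mitochondrially encoded subunits, had a median of 0.02 over 103 probes of 76 genes, with 2 higher and 1 lower at an adjusted p under 0.1 (4.05% and 2.66% of all tested probes were). Mrpl15 had 0.44 and 0.24 on the Cy5 arrays and 0.57 and 0.47 on the Cy3 arrays (fitted 0.43 ± 0.06 SE, limma adjusted p = 0.0625). Mrpl27 had 0.24 and 0.21 on the Cy5 arrays and 0.30 and 0.24 on the Cy3 arrays (fitted 0.25 ± 0.05 SE, limma adjusted p = 0.0892). Citric acid cycle genes had a median of -0.004 over 25 probes and none at an adjusted p under 0.1. Of the NAD-dependent isocitrate dehydrogenase, the subunit gene Idh3b had 0.22 ± 0.05 and Idh3g had -0.21 ± 0.05 (SE), each with 1 sign on all 4 arrays and limma adjusted p of 0.101 and 0.106. Coenzyme Q synthesis had a median of -0.01 over 18 probes and none at an adjusted p under 0.1, with Pdss2 at -0.33 and Coq10b at -0.32.

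Of the marker lists, pancreatic acinar genes differed most between arrays, with medians of -0.15 and -1.07 on the Cy5 arrays and 4.27 and -2.70 on the Cy3 arrays over 16 probes. Pnliprp1 of that list had 0.03 and -0.86 on the Cy5 arrays and 4.35 and -2.12 on the Cy3 arrays. All 9 erythroid probes had fitted values below 0 (median -0.14), with the carbonic anhydrase Car1 at -1.16 ± 0.12 (SE, limma adjusted p = 0.0536). Hepatocyte markers had a median of 0.05 over 19 probes. Alb had 1.20 and 1.24 on the Cy5 arrays and -0.44 and -0.24 on the Cy3 arrays, and the Apob probe of lowest p had 0.20 ± 0.05 (SE). Endothelial markers had a median of -0.13 over 15 probes, with Kdr at -0.23 and Lyve1 at -0.13. Kupffer cell markers had a median of -0.06 over 13 probes. Only 3 of the 13 had fitted values above 0, among them the 2 Cd68 probes at 0.18 and 0.15. Brown fat markers had a median of -0.02 over 5 probes, Cox7a1 among them, and Elovl3 had -1.10 ± 0.30 (SE). Striated muscle markers had a median of -0.33 over 4 probes, with Tnnt3 at -0.15 and Pvalb, the only 1 of the 4 above 0, at 0.15.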
